A study of Mus musculus with 8 samples.

Results

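The genes described here encode the voltage-gated sodium channels, the voltage-gated calcium channels, the hyperpolarisation-activated (HCN) channels, channels of the TRPC, TRPM and TRPV families, and the connexins. They were taken from the deposited expression table by gene name, and the families were chosen with earlier results of these data known. The rule took every row whose name starts with Scn and a digit, with Cacna, Cacnb or Cacng, or with Hcn and a digit. It also took names that start with Trpc, Trpm or Trpv and a digit, or with Gja, Gjb, Gjc or Gjd and a digit. The table holds 41 such rows of 13677 genes, and all 41 passed the filter on low values (a signal of at least 1 in at least 2 libraries). They comprise 8 sodium channel genes, 14 calcium channel genes, 3 HCN genes, 10 TRP rows and 6 connexin genes. One TRP row, Trpc4ap, encodes a protein that associates with a TRPC channel and is not itself a channel. Trpc6 was not analysed here.

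Poly(A) RNA from mouse ventricles was sequenced as 8 libraries in 3 groups that carry the labels' own names: DKO (n = 3), KO (n = 2, numbered 1 and 3) and C (n = 3). The series sets Vhl-deficient ventricles against wild-type ventricles in a model with Cre recombinase under Wt1, and its samples were left untreated before extraction. Vhl encodes the part of a ubiquitin ligase that marks hypoxia-inducible factors for degradation, and Wt1 is a gene of the epicardium, the outer cell layer of the heart. The labels spell out neither KO nor DKO, name no second allele for DKO, and give no age or sex, and they do not say in which cells recombination took place or whether the C samples carry Cre. Separate animals are not mentioned either, and the spread that the p-values rest on is that between the libraries, which could be technical. A KO sample numbered 2 was not analysed here.

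In heart muscle the sodium channel carries the fast upstroke of the action potential, and L-type calcium channels then admit the calcium that triggers contraction. HCN channels carry a pacemaker current, T-type calcium channels serve pacemaking and the fetal heart, and connexins join cells into gap junctions through which the impulse spreads. Sodium and calcium channels are built from a large pore-forming alpha subunit and smaller auxiliary subunits that set trafficking and gating, whereas TRP channels admit calcium, sodium or magnesium in response to stretch, lipids, heat or intracellular calcium.

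Library totals over the table were 15028176 to 21202385 reads, of which the 41 genes took 0.0682% to 0.159%. Levels are given as the deposited signal, which scales reads by an effective library size. A gene with 0 reads could have a signal of up to 0.104 to 0.283 (3 reads), depending on the library and for counting error only. Mitochondrial transcripts took 22.9%, 41.6% and 29.9% of reads in DKO, 16.2% and 17.4% in KO, and 24.5%, 23.1% and 29.0% in C. The library DKO 2 stood apart, in that its 10 leading genes took 51.5% of reads and those of the other libraries 22% to 38.1%. Markers of ventricular cardiomyocytes were present in every library. Their summed signal over 11 genes was 42161 to 69532 in DKO, 41747 and 46866 in KO, and 68577 to 71653 in C. In whole tissue, fewer cells of a type and less RNA per cell cannot be told apart.

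Per kilobase of the longest annotated transcript, which is the scale used for levels of different genes, Gja1 (connexin 43, the main gap junction protein of working ventricle) stood first, with 42.4 in DKO, 52.0 in KO and 36.0 in C. Hcn2, the HCN subunit of ventricular muscle, had 17.8 in DKO, 13.7 in KO and 15.8 in C. Cacna1c, the pore of the cardiac L-type calcium channel, had 9.14 in DKO, 9.43 in KO and 7.96 in C. Hcn2 led the HCN genes and Gja1 the connexins in every library. Hcn2 made up 91.9% to 95.7% of the 3 HCN genes in DKO, 90.4% and 89.4% in KO, and 94.1% to 97.3% in C. Gja1 made up 55.0% to 71.4% of the 6 connexins in DKO, 69.1% and 56.7% in KO, and 62.3% to 67.8% in C.

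**Figure D1:**
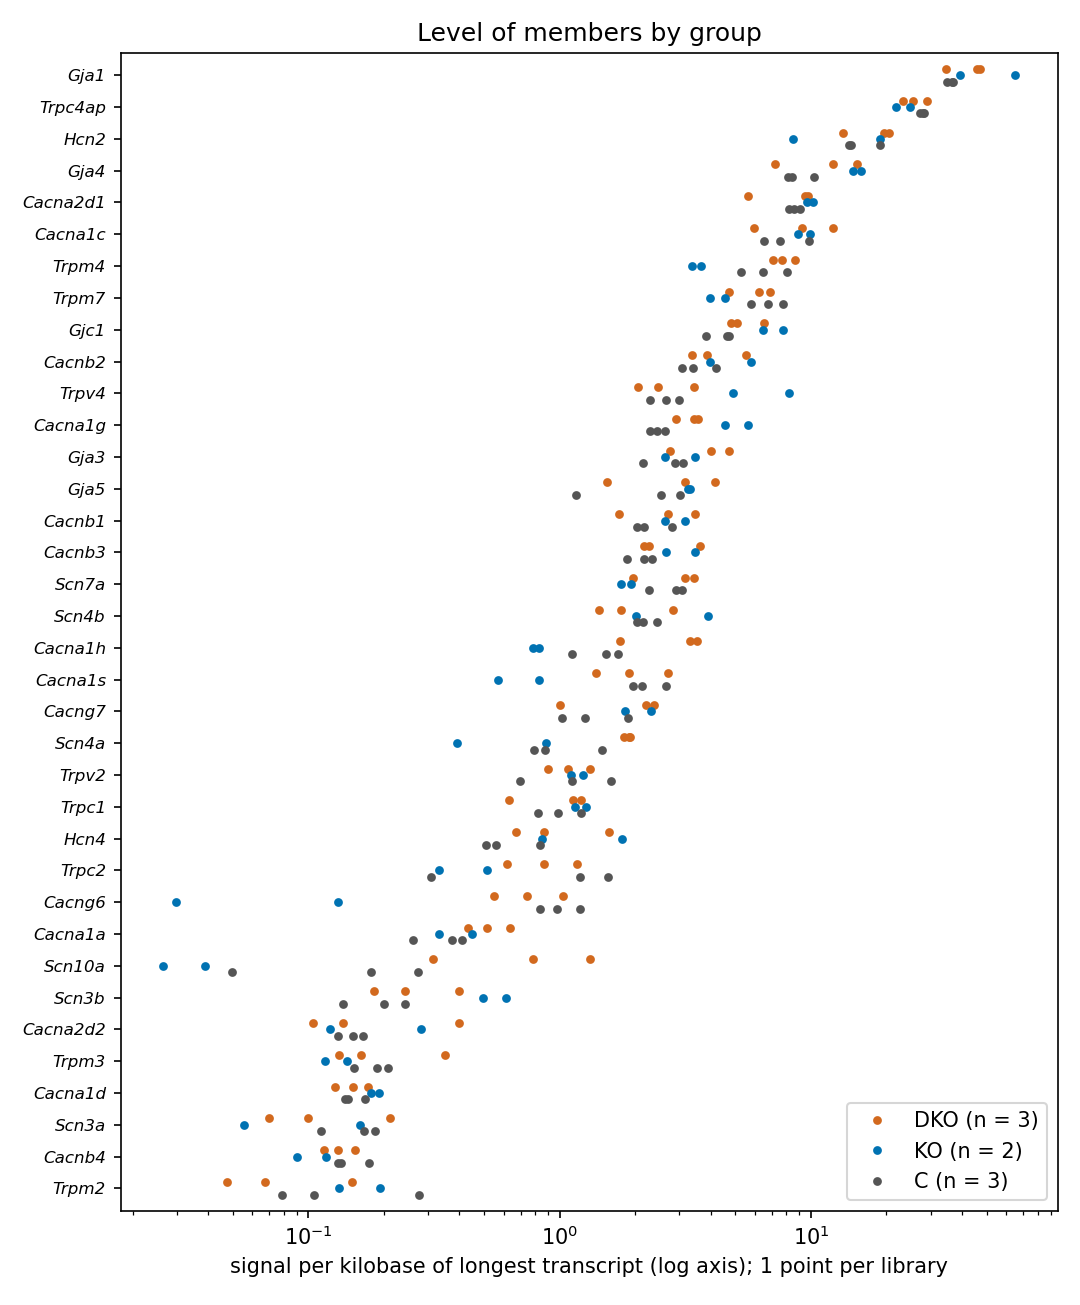
Level of the genes in each library, as signal per kilobase of the longest transcript on a log axis, with 1 point per library (DKO orange, KO blue, C grey) and genes ordered by their mean over all libraries. Gja1 stands first, and the KO points of Cacng6, Scn10a, Cacna1s and Cacna1h lie left of the other groups' points.

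In KO versus C, 10 of the 41 genes changed in limma's moderated test at an adjusted p under 0.05 over all 13544 genes tested, which is 24.4% of them against 13.9% of all tested genes. Of these, 6 were higher in KO, among them Scn3b, Cacna1g, Trpv4 and Gjc1, and 4 were lower, namely Cacna1s, Cacng6, Trpm4 and Trpm7. The median log2 fold change of the 41 genes was 0.19, beside 0.01 over all tested genes. An unadjusted p under 0.05 was found for 17 of the 41, beside 3941 of all 13544 tested genes. In DKO versus C, limma called 0 of the 41 genes, beside 0.155% of all tested genes, with a smallest adjusted p of 0.326. In that comparison 6 of the 41 had an unadjusted p under 0.05, beside 1151 of all 13544 tested genes. Of the 41, edgeR called 0, voom 0 and DESeq2 1 (Scn10a). Over all tested genes edgeR called 10 higher and 15 lower, voom 5 and 2, and DESeq2 33 and 36. In DKO versus KO, 9 of the 41 genes changed, which is 22.0% against 11.8% of all tested genes: Cacna1h, Trpm4, Scn10a, Cacna1s, Scn4a and Cacng6 were higher in DKO, and 3 were lower, Trpv4 and Cacna1g among them. KO versus C and DKO versus C share the C libraries, and KO versus C and DKO versus KO share the KO libraries, so these counts are not independent. Without DKO 2, DKO versus C again had 0 calls among the 41 genes, beside 8 higher and 6 lower of all tested genes. DKO versus KO then had 6 of the 41 higher and 4 lower, with Scn3b added, beside 1085 and 904 of all tested genes. With 2 libraries KO is the smallest group, and many calls depend on which KO library is left out, as given with each gene. Without KO 3 the log2 fold change in KO versus C fell from 1.18 to 0.83 for Trpv4 and from 1.02 to 0.87 for Cacna1g. It rose from 0.87 to 0.98 for Scn3b and from 0.66 to 0.78 for Gjc1.

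**Figure D2:**
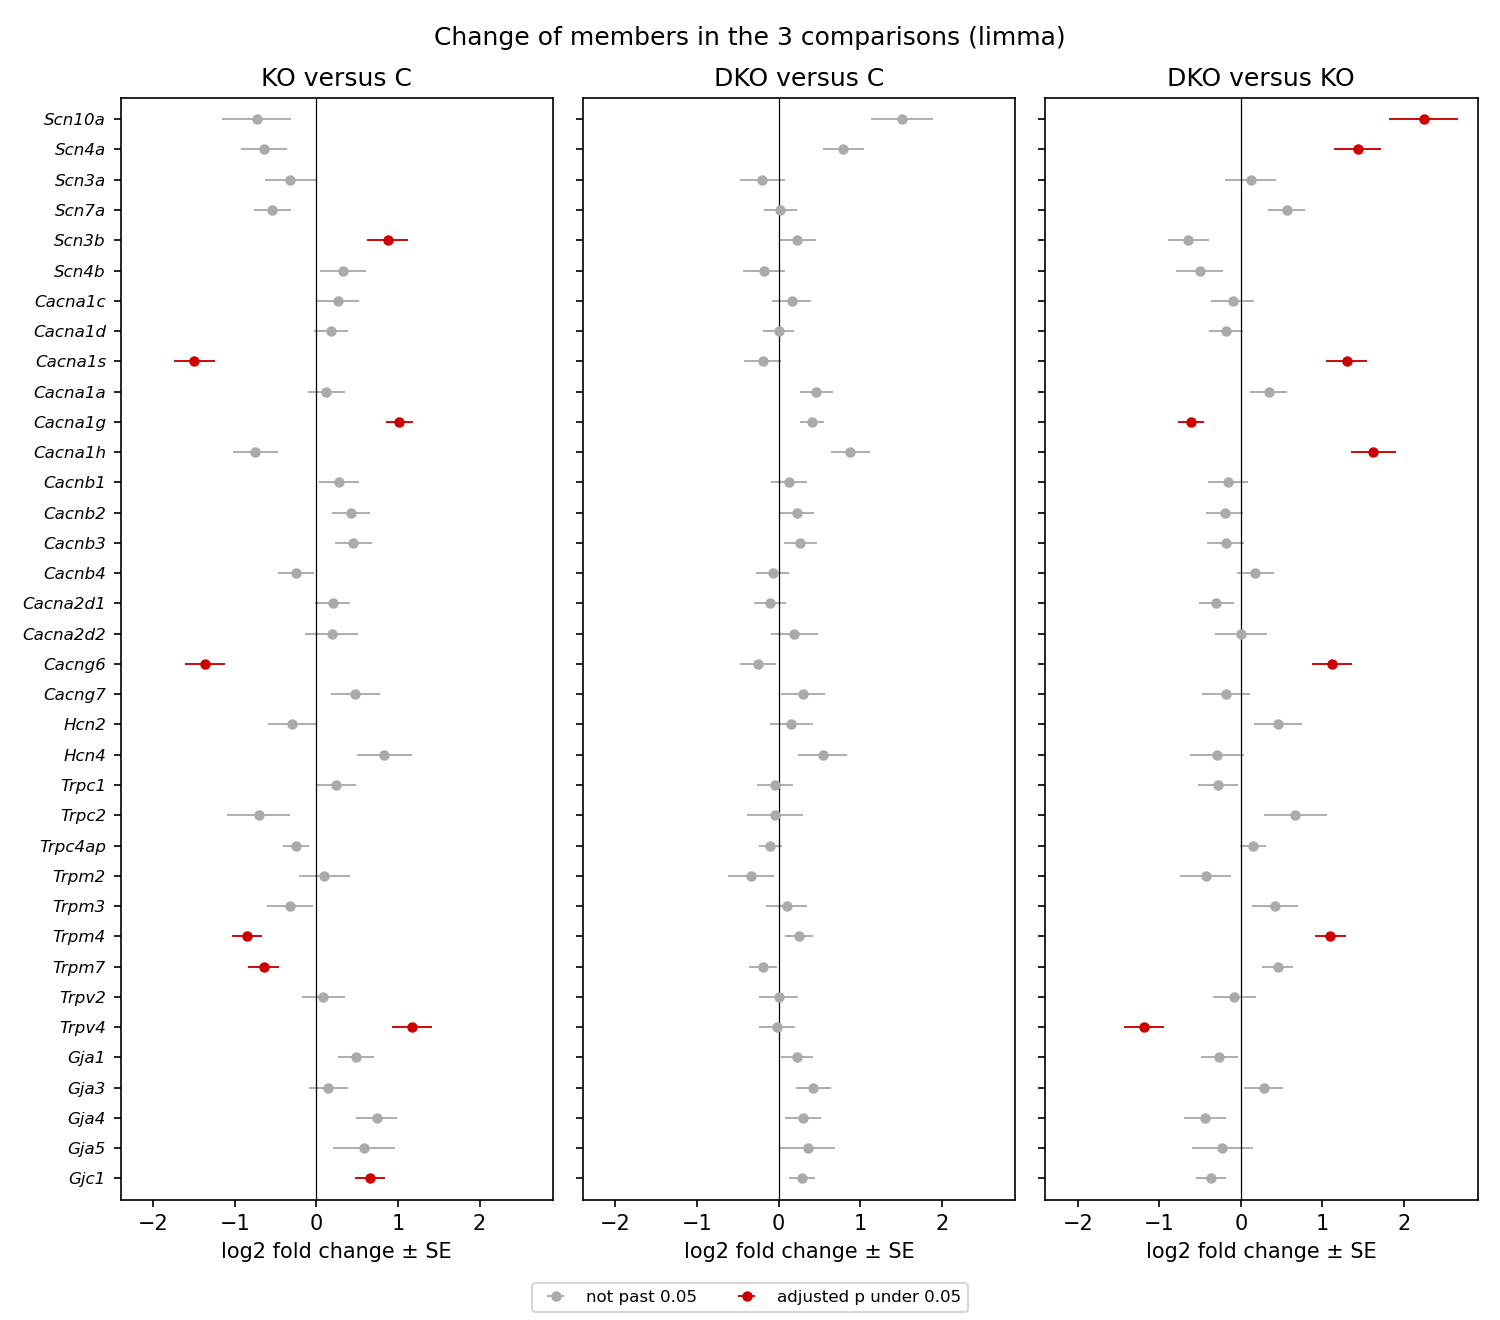
Log2 fold change of the genes in the 3 comparisons, on the log2(signal + 1) scale, with error bars of 1 SE from limma and genes past the adjusted threshold of 0.05 in red. Red points stand in KO versus C and in DKO versus KO, and DKO versus C has 0.

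Promoter sequence was in the RefSeq table (GRCm38.p6, from 250 bases before to 50 bases after the start site) for 29 of the 41 genes, and among the 10 genes that changed between KO and C for Cacna1s, Cacng6, Trpm7 and Trpv4. Because hypoxia-inducible factors bind a short core, ACGTG or GCGTG, these windows were searched for both spellings on both strands, with a palindromic CACGTG counted on each strand. Any matches are in capitals, as read on the printed strand. The windows of the 4 genes are chr1:136052561-136052860 (plus strand) for Cacna1s, chr7:3424412-3424711 (plus strand) for Cacng6, chr2:126876212-126876511 (minus strand) for Trpm7 and chr5:114658372-114658671 (minus strand) for Trpv4.
Cacna1s: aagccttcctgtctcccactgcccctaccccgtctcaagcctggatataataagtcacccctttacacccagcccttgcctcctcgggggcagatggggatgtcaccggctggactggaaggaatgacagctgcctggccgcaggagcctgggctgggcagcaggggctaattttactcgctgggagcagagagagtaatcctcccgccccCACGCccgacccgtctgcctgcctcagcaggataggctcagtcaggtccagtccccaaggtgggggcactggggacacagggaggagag
Cacng6: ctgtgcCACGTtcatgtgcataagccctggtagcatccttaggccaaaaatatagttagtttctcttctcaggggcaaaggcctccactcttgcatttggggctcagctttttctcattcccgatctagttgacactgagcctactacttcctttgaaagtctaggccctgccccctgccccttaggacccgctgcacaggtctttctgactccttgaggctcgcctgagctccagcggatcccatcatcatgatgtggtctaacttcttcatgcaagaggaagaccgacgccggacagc
Trpm7: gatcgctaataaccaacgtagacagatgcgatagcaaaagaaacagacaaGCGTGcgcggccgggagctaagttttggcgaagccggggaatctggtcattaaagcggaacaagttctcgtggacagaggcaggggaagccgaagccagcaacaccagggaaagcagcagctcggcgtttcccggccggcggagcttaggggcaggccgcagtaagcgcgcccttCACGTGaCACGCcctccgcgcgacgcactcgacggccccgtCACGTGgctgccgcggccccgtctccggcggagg
Trpv4: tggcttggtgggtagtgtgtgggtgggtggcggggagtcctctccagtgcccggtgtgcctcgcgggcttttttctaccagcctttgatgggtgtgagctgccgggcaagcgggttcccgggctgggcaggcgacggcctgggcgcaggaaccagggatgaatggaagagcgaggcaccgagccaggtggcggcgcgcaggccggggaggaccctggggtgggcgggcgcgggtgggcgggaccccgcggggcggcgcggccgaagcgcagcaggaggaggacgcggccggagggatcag
The Cacna1s window held 1 match, 39 bases before the start site, and the Cacng6 window 1 match, 244 bases before it. The Trpm7 window held 6 matches, a number reached by 0.694% of all 32851 windows in the table, and 4 of them came from both strands of 2 CACGTG palindromes. The Trpv4 window held 0. The 29 genes with promoter sequence had 41 windows, as some genes had more than 1. Of these windows 24 held at least 1 match (58.5%), beside 43.8% of all windows. Their GC content ran from 40.3% to 87.3% and was not matched in this comparison. A match describes the letters of the window and shows no binding.

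Among the sodium channel alpha subunits, Scn10a, which encodes a channel best known from sensory neurons, had a signal of 8.85, 5.24 and 2.10 in DKO, 0.177 and 0.260 in KO, and 1.19, 0.331 and 1.82 in C, from 192, 55 and 36 reads in DKO, 4 and 7 in KO, and 19, 5 and 29 in C. All DKO libraries lay above all others, both KO libraries lay below all others, and no 2 groups overlapped. Scn10a was higher in DKO than in KO (log2 fold change 2.24 ± 0.42, limma adjusted p = 0.00718), and this call was lost without KO 1 (0.0574) and without KO 3 (0.0696). The log2 fold change in KO versus C was -0.73 ± 0.42 (adjusted p = 0.281) and in DKO versus C 1.51 ± 0.38 (adjusted p = 0.326). Without DKO 3, the lowest DKO library, DKO versus C gave 1.96 ± 0.32 (adjusted p = 0.0321), and DESeq2 on all libraries gave an adjusted p of 0.0133 for that comparison and of 0.0111 for KO versus C.

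Scn4a encodes the sodium channel of skeletal muscle. Its signal was 12.4, 11.9 and 12.5 in DKO, 2.58 and 5.81 in KO, and 5.23, 5.76 and 9.73 in C. The DKO libraries agreed to within 1 unit of signal and lay above all others, and KO and C overlapped. Scn4a was higher in DKO than in KO by 1.43 ± 0.28 (limma adjusted p = 0.0088, and 0.0971 without KO 1), whereas DKO versus C gave 0.79 ± 0.25 (adjusted p = 0.489) and KO versus C -0.64 ± 0.28 (adjusted p = 0.158). Scn7a, an atypical sodium channel of glia and other non-excitable cells, had 25.2, 23.2 and 14.4 in DKO, 14.1 and 12.9 in KO, and 22.4, 21.4 and 16.7 in C. Both KO libraries lay below all others, but no comparison passed in the fit of all libraries (KO versus C -0.54 ± 0.23, limma adjusted p = 0.137). KO versus C passed with these 2 groups alone (0.0267) and without DKO 3 (0.0477), and DKO versus KO passed without DKO 3 (0.0188). Scn3a, a sodium channel of neurons, ranged from 0.531 to 2.03 over the 8 libraries, with overlap between all groups.

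Markers of skeletal muscle and of neurons and glia also differed between the groups. Of 15 skeletal muscle markers, 11 were lower and 1, Casq1, was higher in KO than in C, and 8 were lower in DKO than in C. In DKO versus KO, 0 of the 15 passed as higher and 3 as lower, Casq1 among them. Their median log2 fold change in that comparison was 0.56, beside 0.01 over all tested genes, and Scn4a and Cacna1s were higher. The summed signal of all 15 was 140, 171 and 952 in DKO, 2598 and 1723 in KO, and 682, 700 and 1199 in C. Without Acta1, a skeletal actin that heart muscle also expresses and that was set aside after its values were seen, the groups took another order, and the sum was 80.1, 60.5 and 91.7 in DKO, 205 and 159 in KO, and 397, 187 and 681 in C. This sum still holds Casq1. The defining markers Myh2 and Myh4 had 0 reads in both KO libraries, and Myh1 had a signal of 0.299, 0.330 and 0.0288 in DKO, 0.177 and 0.0867 in KO, and 4.81, 2.08 and 8.43 in C. Of 15 neuron and glia markers 11 were in the table, and their summed signal was 66.4, 63.1 and 38.7 in DKO, 33.3 and 32.6 in KO, and 41.3, 34.8 and 32.5 in C. In KO versus C, 2 of the 11 were lower, Cdh19 among them, and 1 was higher (Tubb3), and in DKO versus KO 6 were higher and 1 lower. Sox10, a transcription factor of glia, had 6.37, 5.52 and 1.58 in DKO, 0.492 and 0.815 in KO, and 2.42, 2.20 and 2.87 in C. Among conduction system markers, Cntn2 had 29.4, 12.9 and 3.60 in DKO, 5.53 and 7.47 in KO, and 7.19, 0.633 and 6.09 in C, and no comparison passed for it. Over the 8 tested markers of that list 1 was higher and 0 lower in KO than in C, and 0 were higher and 1 lower in DKO than in KO. The summed signal of the 9 conduction markers in the table was 168, 120 and 112 in DKO, 162 and 174 in KO, and 128, 114 and 104 in C. DKO 1 was the highest and DKO 3 the lowest DKO library for Scn10a, Cntn2, Sox10 and both the neuron and glia sum and the conduction sum. The part of these cell types in the sodium channel results was not tested.

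**Figure D3:**
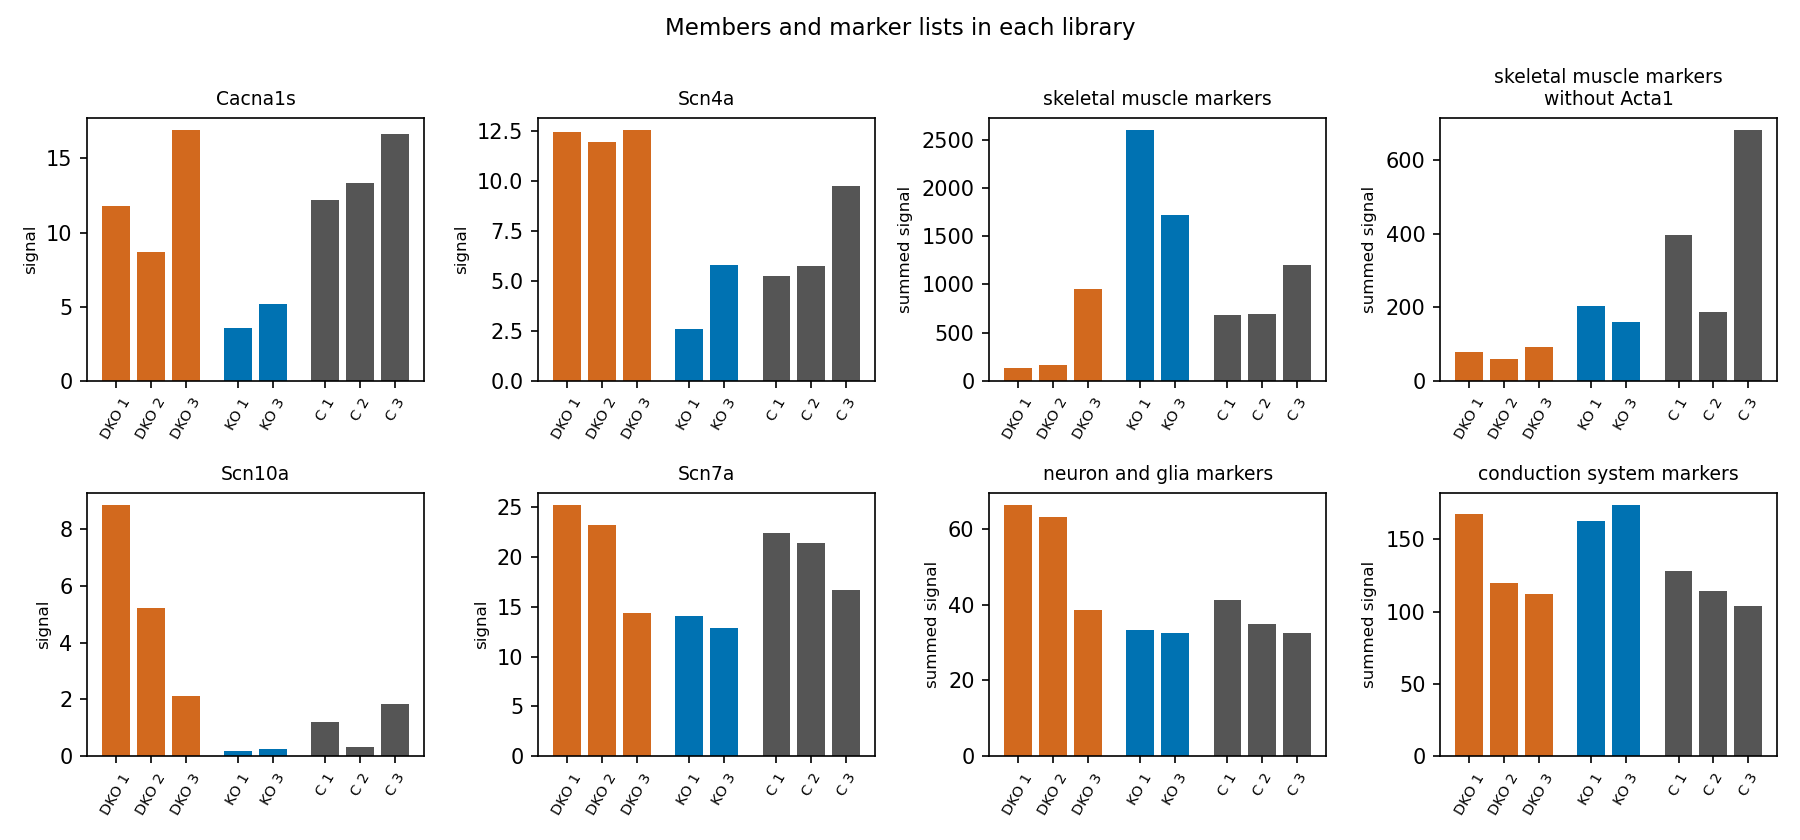
Signal of Cacna1s, Scn4a, Scn10a and Scn7a and summed signal of 4 marker sets (all 15 skeletal muscle markers, the same without Acta1, neurons and glia, and conduction system), with 1 bar per library (DKO orange, KO blue, C grey). KO is highest for the sum of all 15 skeletal muscle markers (2598 and 1723), and without Acta1 the DKO bars are lowest (60.5 to 91.7).

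Scn3b encodes a sodium channel beta subunit, one of the proteins that anchor the pore and tune its gating. It was near the lower limit of the table, with 0.758, 1.65 and 1.01 in DKO, 2.54 and 2.06 in KO, and 1.01, 0.573 and 0.834 in C, which in KO was 64 and 59 reads and in C 16, 9 and 13. KO lay above all other libraries. The change in KO versus C was 0.87 ± 0.25 (limma adjusted p = 0.0361), and it was lost under 8 of 19 alternatives, among them log2 of the signal with no pseudocount (0.0542), the removal of length and GC trends (0.0637) and the omission of any C or KO library (0.0691 to 0.225). Scn4b, another beta subunit gene, had 7.15, 8.73 and 14.0 in DKO, 10.1 and 19.5 in KO, and 10.7, 10.2 and 12.2 in C, with overlap between all groups (KO versus C 0.33 ± 0.29, limma adjusted p = 0.483).

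Of the L-type calcium channel pores, that of skeletal muscle changed and that of heart passed in no comparison. Cacna1c, the cardiac pore, had a signal of 78.4, 122 and 161 in DKO, 117 and 131 in KO, and 85.6, 98.9 and 130 in C. All groups overlapped, and no comparison passed (KO versus C 0.26 ± 0.27, limma adjusted p = 0.559). Cacna1s, the pore and voltage sensor of skeletal muscle, had 11.8, 8.73 and 16.9 in DKO, 3.56 and 5.18 in KO, and 12.2, 13.4 and 16.7 in C. Both KO libraries lay below all others, and DKO overlapped C. Cacna1s was 2.82-fold lower in KO than in C on the log2(signal + 1) scale (-1.49 ± 0.25, limma adjusted p = 0.0033), a call kept under all 20 alternatives, with an adjusted p of at most 0.0434. It was higher in DKO than in KO by 1.3 ± 0.25 (adjusted p = 0.00807, and 0.0843 without KO 1). Per kilobase, the ratio of Cacna1s to Cacna1c was 0.316, 0.151 and 0.222 in DKO, 0.0640 and 0.0833 in KO, and 0.301, 0.284 and 0.270 in C. The skeletal muscle markers given above were lower in KO than in C for 11 of 15, and in DKO, where 8 of 15 were lower than in C, Cacna1s had a log2 fold change of -0.20 ± 0.23 from C (limma adjusted p = 0.814). Cacna1d, an L-type pore of pacemaker and neuroendocrine cells, ranged from 1.24 to 1.85 over the libraries.

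Cacng6 encodes a gamma subunit, one of the small membrane proteins found with the calcium channels of skeletal muscle and heart. It had a signal of 2.05, 1.09 and 1.47 in DKO, 0.0590 and 0.260 in KO, and 1.93, 1.66 and 2.38 in C, with 1 and 7 reads in KO. Both KO libraries lay below all others and DKO overlapped C. The change was -1.36 ± 0.24 in KO versus C (limma adjusted p = 0.0045, and 0.0518 without KO 1) and 1.12 ± 0.24 in DKO versus KO (adjusted p = 0.0137, and 0.118 without KO 1 and 0.0849 without KO 3). At so few reads the size of the fitted change depends on the pseudocount, and without one it was -3.99 in KO versus C. Its neighbour Cacng7, 56.0 kb away on chromosome 7, ranged from 2.22 to 5.24 over the libraries and overlapped between all groups.

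The 2 T-type pores moved in opposite directions in DKO versus KO. Cacna1g had a signal of 24.3, 29.7 and 28.8 in DKO, 38.2 and 47.2 in KO, and 19.1, 20.5 and 22.0 in C. The 3 groups did not overlap, with KO highest, DKO between and C lowest. Cacna1g was 2.02-fold higher in KO than in C (1.02 ± 0.16, limma adjusted p = 0.00265, and 0.0512 without KO 3), and lower in DKO than in KO (-0.61 ± 0.16, adjusted p = 0.0327). The last call was lost under 7 of 20 alternatives, with an adjusted p of up to 0.287 without KO 3. In DKO versus C it gave 0.40 ± 0.15 (adjusted p = 0.549).

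Cacna1h, the other T-type pore, had 29.1, 27.3 and 14.4 in DKO, 6.48 and 6.81 in KO, and 12.6, 9.25 and 14.1 in C. The 3 groups again did not overlap, but in another order, with DKO highest, C between and KO lowest. Cacna1h was 3.08-fold higher in DKO than in KO (1.62 ± 0.27, limma adjusted p = 0.00388), a call kept under all 20 alternatives with an adjusted p of at most 0.0430. KO versus C gave -0.75 ± 0.27 (adjusted p = 0.0885), which passed in a fit of these 2 groups alone (0.0129), in DESeq2 (0.0322) and with length and GC trends removed (0.0478). DKO versus C gave 0.88 ± 0.24 (adjusted p = 0.446), and 1.19 ± 0.19 without DKO 3 (adjusted p = 0.0295). The ratio of the level of Cacna1g to that of Cacna1h per kilobase was 0.820, 1.07 and 1.97 in DKO, 5.79 and 6.81 in KO, and 1.49, 2.18 and 1.53 in C. The KO ratios thus lay above all others, and DKO and C overlapped. Both T-type genes together made up 43.0%, 37.5% and 25.1% of the 6 calcium channel pores in DKO, 34.9% and 36.1% in KO, and 29.8%, 26.2% and 24.9% in C.

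Among the remaining calcium channel genes limma made no call in any comparison. Cacnb2, the main cardiac beta subunit, had a signal of 19.4, 16.9 and 27.7 in DKO, 20.1 and 29.0 in KO, and 17.1, 15.5 and 21.0 in C. Cacna2d1, the main cardiac alpha2delta subunit, had 72.3, 41.7 and 70.2 in DKO, 71.5 and 75.8 in KO, and 61.0, 67.4 and 63.9 in C. KO lay above C for Cacna2d1 but the change was 0.20 ± 0.22 (limma adjusted p = 0.587), and its lowest value came from DKO 2. The beta subunit genes Cacnb1, Cacnb3 and Cacnb4, the alpha2delta gene Cacna2d2 and the P/Q-type pore Cacna1a, which serves transmitter release in neurons, had limma adjusted p-values of 0.202 to 0.997 over the 3 comparisons.

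**Figure D4:**
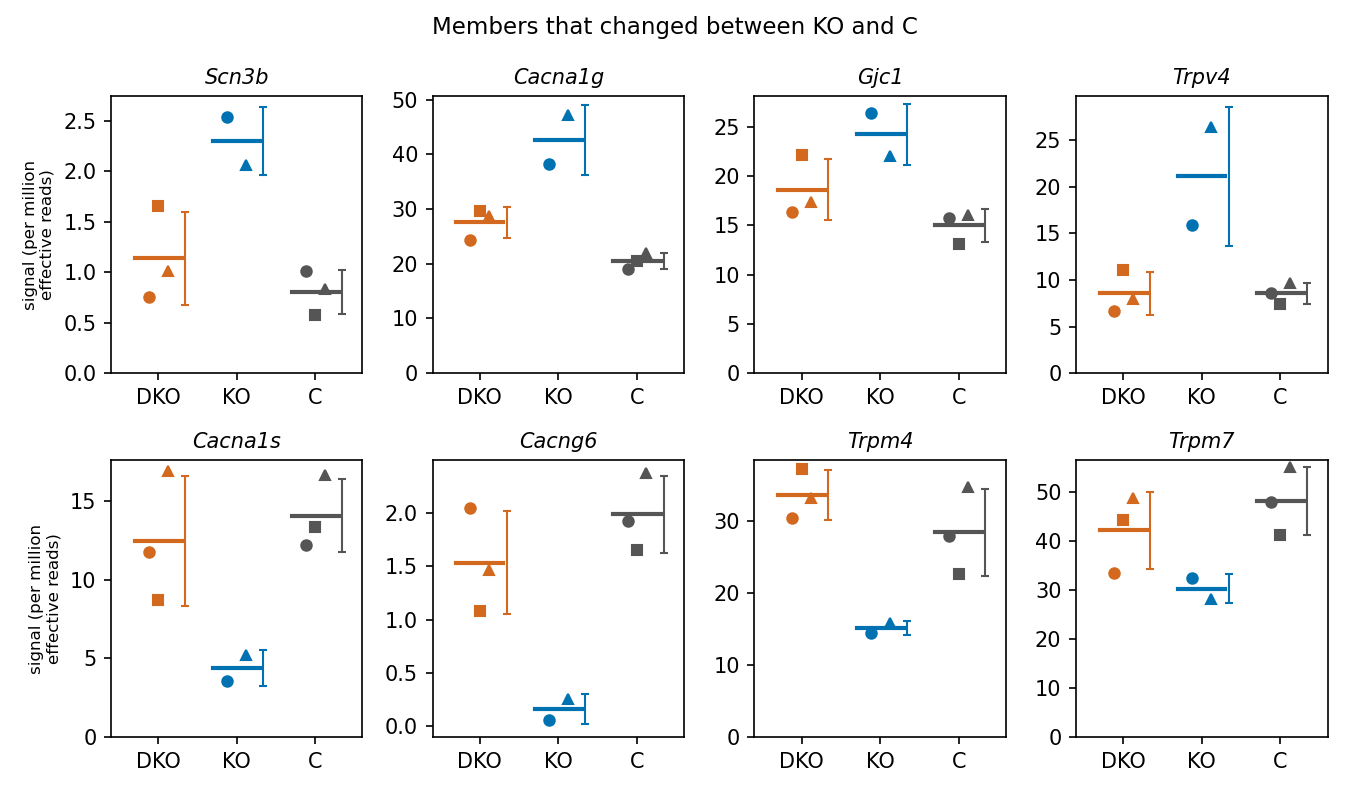
Signal of genes that changed between KO and C, with 1 point per library (circle 1, square 2, triangle 3), the group mean as a line and the SD as an error bar (DKO n = 3, KO n = 2, C n = 3). KO lies above all C points for Scn3b, Cacna1g, Gjc1 and Trpv4 and below them for Cacna1s, Cacng6, Trpm4 and Trpm7.

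None of the 3 HCN genes passed in any comparison in the limma fit of all libraries, and the 2 KO libraries lay apart for those named. Hcn2 had a signal of 62.5, 42.8 and 65.5 in DKO, 27.2 and 60.2 in KO, and 45.5, 46.0 and 60.3 in C. Hcn4, the main HCN subunit of the sinus node, had 9.58, 4.11 and 5.33 in DKO, 5.22 and 10.8 in KO, and 5.11, 3.41 and 3.12 in C. KO 1 was the lowest library for Hcn2, and KO 3 held the highest Hcn4. The change in KO versus C was 0.83 ± 0.33 for Hcn4 (limma adjusted p = 0.118, and 0.0444 in a fit of these 2 groups alone) and -0.30 ± 0.29 for Hcn2 (adjusted p = 0.537). Per kilobase, the ratio of Hcn4 to Hcn2 was 0.0801, 0.0501 and 0.0425 in DKO, 0.100 and 0.0937 in KO, and 0.0586, 0.0387 and 0.0270 in C, with KO above all others.

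Of the TRP rows, 1 was higher and 2 were lower in KO than in C. Trpv4, a calcium-permeable channel that opens with heat and cell swelling and is known from endothelium and fibroblasts, had a signal of 6.64, 11.1 and 7.98 in DKO, 15.8 and 26.4 in KO, and 8.60, 7.38 and 9.67 in C. Both KO libraries lay above all others, and DKO overlapped C. Trpv4 was 2.26-fold higher in KO than in C (1.18 ± 0.24, limma adjusted p = 0.00912) and 2.28-fold lower in DKO than in KO (-1.19 ± 0.24, adjusted p = 0.0103). Without KO 3 these calls were lost (0.139 and 0.156). Of 13 fibroblast markers 5 were also higher in KO than in C, and their summed signal was 3653, 2493 and 1454 in DKO, 2590 and 2013 in KO, and 2059, 1634 and 1249 in C. In DKO versus KO, 5 of the 13 were lower and 0 higher. Of 7 tested markers of the epicardium, the layer that expresses Wt1, 4 were higher in KO than in C and 3 were lower in DKO than in KO, with 0 in the other direction. Their summed signal was 26.2, 33.4 and 19.8 in DKO, 53.0 and 53.4 in KO, and 20.0, 21.5 and 17.0 in C, so that KO lay above all others as it did for Trpv4. The part of fibroblasts and of the epicardium in the Trpv4 result was not tested.

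Trpm4, a channel that opens with intracellular calcium and passes sodium and potassium but not calcium, had 30.4, 37.3 and 33.2 in DKO, 14.5 and 15.8 in KO, and 27.9, 22.7 and 34.8 in C. Both KO libraries lay below all others, and DKO overlapped C. Trpm4 was lower in KO than in C (-0.85 ± 0.19, limma adjusted p = 0.0121, lost without C 3, KO 1 or KO 3 at 0.0518, 0.0922 and 0.0799) and 2.14-fold higher in DKO than in KO (1.10 ± 0.19, adjusted p = 0.00421), a call kept under all 20 alternatives with an adjusted p of at most 0.0452.

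Trpm7, a magnesium- and calcium-permeable channel fused to a kinase, had 33.4, 44.3 and 48.8 in DKO, 32.3 and 28.1 in KO, and 48.0, 41.3 and 55.1 in C. KO lay below all other libraries, with DKO 1 close to KO 1. The change in KO versus C was -0.65 ± 0.19 (limma adjusted p = 0.0433), and omission of any single C or KO library ended the call (0.0585 to 0.273). DKO versus KO gave 0.45 ± 0.19 (adjusted p = 0.143). Per kilobase, the ratio of Trpm4 to Trpm7 was 1.50, 1.39 and 1.12 in DKO, 0.739 and 0.924 in KO, and 0.958, 0.906 and 1.04 in C. All DKO ratios lay above all others.

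Of the TRPC channels, Trpc1 had a signal of 5.54, 2.88 and 5.16 in DKO, 5.81 and 5.25 in KO, and 5.54, 4.49 and 3.74 in C. It overlapped between all groups, and its lowest value came from DKO 2. Trpc2 shares its strand and its place with Xntrpc and Xndc1, so its signal of 0.888 to 4.48 is uncertain. Trpc4ap, which overlaps the muscle gene Myh7b on the opposite strand, ranged from 85.6 to 113, and Trpm2, Trpm3 and Trpv2 ranged from 0.345 to 5.91 together. None of these genes had a call in the limma fit of all libraries. Trpc2 passed in KO versus C without C 1 (-1.17, limma adjusted p = 0.0327).

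Of the 6 connexins, 1 changed between KO and C, beside 13.9% of all tested genes. Gjc1, which encodes connexin 45, a gap junction protein of the conduction system and the early heart, had a signal of 16.4, 22.1 and 17.4 in DKO, 26.4 and 22.0 in KO, and 15.8, 13.1 and 16.1 in C. Both KO and DKO lay above all C libraries, and DKO 2 exceeded KO 3. The change was 0.66 ± 0.18 in KO versus C (limma adjusted p = 0.0314) and 0.29 ± 0.16 in DKO versus C (adjusted p = 0.631). The KO versus C call was lost under 7 of 20 alternatives, among them the omission of any C or KO library (0.0653 to 0.221) and the removal of length and GC trends (0.0504).

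Gja1 had 183, 134 and 178 in DKO, 252 and 152 in KO, and 143, 136 and 141 in C. KO 1 was far above KO 3, which lay close to C, and the change in KO versus C was 0.48 ± 0.22 (limma adjusted p = 0.17). Gja4 (connexin 37) and Gja5 (connexin 40) are the connexins of arterial endothelium, and Gja5 is also that of the atria and the conduction system. Gja4 had 20.6, 25.8 and 12.2 in DKO, 24.7 and 26.7 in KO, and 17.4, 14.2 and 13.7 in C. KO lay above C, and its lower library lay within the DKO range, with a change of 0.74 ± 0.25 in KO versus C (limma adjusted p = 0.071). It passed with these 2 groups alone (0.00428), without DKO 3 (0.013), without DKO 2 (0.0278), in DESeq2 (0.0339) and with length and GC trends removed (0.0426). Gja5 had 15.2, 11.6 and 5.67 in DKO, 12.1 and 11.9 in KO, and 11.1, 4.25 and 9.30 in C, with a change of 0.58 ± 0.38 in KO versus C (adjusted p = 0.333). DKO 3 was the lowest DKO library for both. The summed signal of 8 markers of arterial endothelium was 217, 261 and 134 in DKO, 251 and 288 in KO, and 218, 153 and 182 in C, and 1 of the 8 was higher in KO than in C. The summed signal of 6 atrial markers was 379, 267 and 467 in DKO, 2520 and 1652 in KO, and 277, 608 and 289 in C, and in KO versus C 1 of the 6 was higher (Nppa, which stressed ventricle also expresses and which led the sum) and 1 lower. The atrial light chain Myl7 had 16.1, 6.37 and 0.374 in DKO, 26.6 and 0.988 in KO, and 4.50, 57.2 and 1.02 in C, with overlap between all groups. The part of arterial endothelium, atrium and conduction system in the values of Gja4, Gja5, Gjc1 and Hcn4 was not tested. Gja3, best known from the lens, ranged from 5.96 to 13.0, with no call.

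**Figure D5:**
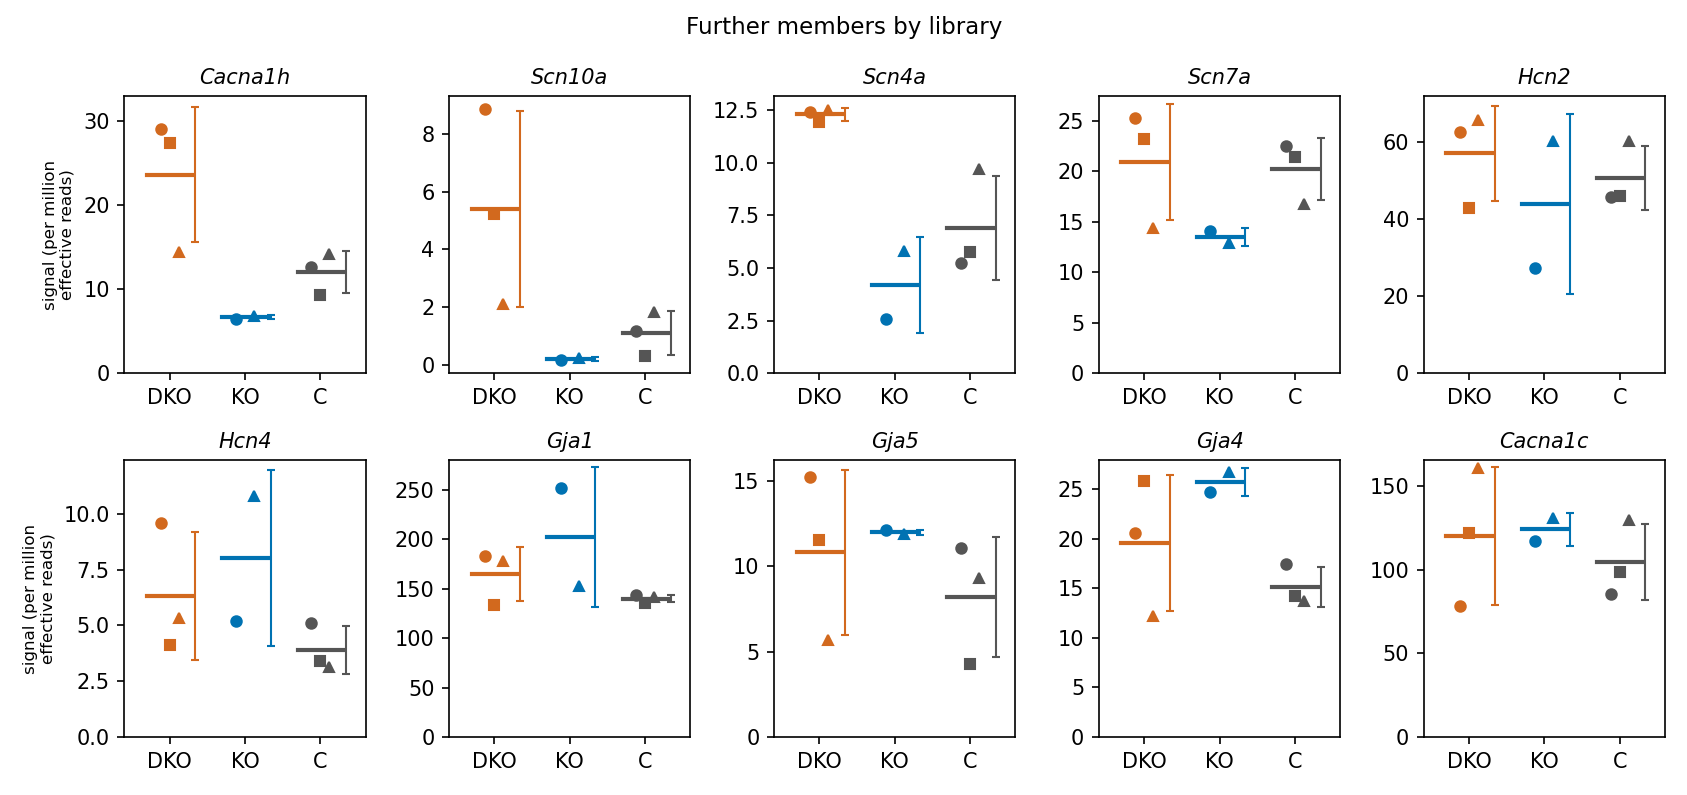
Signal of 10 further genes, with 1 point per library (circle 1, square 2, triangle 3), the group mean as a line and the SD as an error bar (DKO n = 3, KO n = 2, C n = 3). For Cacna1h, Scn10a and Scn4a all DKO points lie above all KO points, and for Hcn2 the KO libraries stand at 27.2 and 60.2.

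Genes that act with these channels were described from 7 lists, and their counts stand beside shares of 13.9% of all tested genes in KO versus C, 0.155% in DKO versus C and 11.8% in DKO versus KO. Of 13 tested partners of the sodium channel, 2 were higher and 1 was lower in KO than in C (median log2 fold change 0.12). Slmap, which encodes a membrane protein of the muscle cell, rose by 0.95 ± 0.22 (limma adjusted p = 0.0156) and Sntb2, a syntrophin, by 1.15 ± 0.23 (adjusted p = 0.00762), and Rangrf, whose product helps to bring sodium channels to the membrane, changed by -0.99 ± 0.19 (adjusted p = 0.00543). In DKO versus KO, Slmap and Sntb2 were lower and Rangrf was higher.

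Of 14 tested regulators of the L-type channel, 3 were higher and 0 lower in KO than in C (median -0.03): Prkar1a and Prkacb, a regulatory and a catalytic subunit of protein kinase A, by 1.23 ± 0.19 (limma adjusted p = 0.00207) and 0.67 ± 0.17 (adjusted p = 0.020), and Gem, a small GTPase that inhibits the channel, by 0.73 ± 0.21 (adjusted p = 0.0394). Prkar1a and Prkacb were lower and Akap5 and Ppp2r5a higher in DKO than in KO. Of 22 tested genes of calcium cycling in the sarcoplasmic reticulum, 2 were higher in KO than in C, Casq1 (the calsequestrin of skeletal muscle, 1.55 ± 0.29, limma adjusted p = 0.00526) and Camk2d (the main cardiac calcium/calmodulin kinase, 0.86 ± 0.18, adjusted p = 0.00975), and 1 was lower, Hrc (a calcium-binding protein of the store, -1.26 ± 0.24, adjusted p = 0.00622). In DKO versus KO, 1 of the 22 was higher (Hrc) and 4 were lower, led by Casq1 at -2.78 ± 0.29 (adjusted p = 0.000281).

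Of 18 tested genes of the intercalated disc, where sodium channels and connexins sit, 3 were higher and 1 was lower in KO than in C (median 0.33). Vcl, which encodes vinculin, changed by 1.52 ± 0.23 (limma adjusted p = 0.00209), Panx1, a channel related in form to connexin hemichannels, by 0.99 ± 0.20 (adjusted p = 0.00792), Cdh2, the cadherin of the disc, by 0.92 ± 0.24 (adjusted p = 0.0267), and Pkp4, a plakophilin, by -0.69 ± 0.18 (adjusted p = 0.0225). In DKO versus KO, 0 were higher and 5 lower, namely Vcl, Cdh2, Xirp2, Panx1 and Nexn. Of 16 tested calcineurin and NFAT genes, 1 was higher in KO than in C, Rcan1, a calcineurin inhibitor (1.69 ± 0.29, limma adjusted p = 0.0038), and it was also the 1 that was lower in DKO than in KO (-1.97 ± 0.29, adjusted p = 0.00225). Of 20 tested transcription factors of the conduction system and the chambers, 2 were higher in KO than in C, Tbx20 (1.60 ± 0.18, limma adjusted p = 0.000454) and Irx4 (0.80 ± 0.22, adjusted p = 0.0299), and Tbx20 was lower in DKO than in KO. Of 12 tested genes of store-operated calcium entry, limma called 0 in KO versus C and 1, Homer2, lower in DKO than in KO. In DKO versus C limma called 0 genes of any of the 7 lists, where 0.155% of all tested genes were called.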

How the data were processed

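Ventricular poly(A) RNA was fragmented, primed with random hexamers and sequenced on an Illumina instrument, per the labels' protocols. Tools listed in the submitters' processing notes are cutadapt, limma and RSEM 1.3.1, with the build GRCm38 and no order of steps; annotation and strandedness are not stated there. The deposited values are a signal of reads plus 0.5 divided by an effective library size, so that its scale is that of CPM. This was read from the values, since whole reads came out for 100% of values within 0.001 reads. Reads split by RSEM between close paralogs are uncertain.

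Groups came from the sample titles. The 13544 genes with a signal of at least 1 in at least 2 of the 8 libraries were fitted with limma 3.58.1 (R 4.3.3) on log2(signal + 1) with an intensity trend, as 3 group means with 5 residual degrees of freedom. P-values were two-sided and adjusted by Benjamini-Hochberg over all genes tested, with a threshold of 0.05. Changes of low genes come out too small on this scale; folds are back-transformed from it. Libraries within groups differed beyond counting noise (chi-square per gene 13.6 to 254.3). Alternatives were other pseudocounts, filters and scalings, removal of length and GC trends, edgeR 4.0.16, DESeq2 1.42.0 and voom on the recovered reads, 2 groups only, a replicate block, and leaving out each library. On the recovered reads, edgeR called 10, 0 and 9 of the 41 genes, DESeq2 14, 1 and 9, and voom 10, 0 and 9, in KO versus C, DKO versus C and DKO versus KO. Over all tested genes the higher and lower calls in KO versus C were 1037 and 999 for edgeR, 1176 and 1314 for DESeq2 and 1039 and 1034 for voom. In DKO versus C they were 10 and 15, 33 and 36, and 5 and 2. In DKO versus KO they were 890 and 788, 1202 and 1015, and 855 and 825. The fit was also run on simulated reads drawn independently for each library, which does not bear on calls that depend on a single library.

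Lengths and positions of 13666 of 13677 genes came from GENCODE M21 (GRCm38), and promoter windows from RefSeq. Values in every library are given for genes past the threshold in any comparison and for the main ventricular members by textbook knowledge, and other members by range; some genes that the rule names are not reported here. In the 7 pathway lists up to 3 genes per direction are named, except that all intercalated disc genes lower in DKO than in KO are named. Members and lists were chosen with earlier results of these data known.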

Additional observations from a re-analysis of the deposited data

How the results depend on the processing

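All 19 calls among the 41 genes kept their direction under up to 20 alternatives, and 3 of them (Cacna1s in KO versus C, Cacna1h and Trpm4 in DKO versus KO) passed under each one. Leaving out 1 C or DKO library at a time gave 3 to 7 of the 41 genes higher and 2 to 6 lower in KO versus C. It gave 0 to 2 higher and 0 lower in DKO versus C, and 6 to 7 higher and 2 to 4 lower in DKO versus KO. Calls over all tested genes moved as well. In KO versus C they went from 934 higher and 949 lower to 475 and 419 without C 1, and to 1449 and 1524 without DKO 2. In DKO versus KO they went from 823 and 776 to 562 and 557 without C 2, and to 1085 and 904 without DKO 2. Leaving out KO 1 or KO 3 ended many of the calls, as given with each gene. With 1 KO library left, that library is assumed to vary like the other groups. Among the 41 genes in KO versus C, 3 were higher without C 1 and 3 without C 2, and 2 were lower without C 3. In DKO versus C, 2 were higher without DKO 3, beside 47 of all tested genes, and 1 with DESeq2, beside 33. Leaving out a KO library also moved the size of changes. In KO versus C the log2 fold change of Trpm7 went from -0.65 to -0.55 without KO 3. That of Cacna1s went from -1.49 to -1.27 without KO 1. In DKO versus KO that of Scn4a went from 1.43 to 0.97 without KO 1.

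With the replicate number as a term (replicate block), 4 of the 41 genes were higher and 3 lower in KO versus C, beside 879 and 915 of all tested genes. In DKO versus C the counts were 0 and 0, beside 10 and 11. In DKO versus KO they were 6 and 3, beside 641 and 628. Scn3b (adjusted p = 0.0617), Trpm7 (0.057) and Gjc1 (0.0556) then missed the threshold in KO versus C. The mean of its group was subtracted from each gene, and the deviations left were correlated between libraries of equal number in different groups. These correlations ran from -0.27 to 0.22. Within groups this small the deviations are tied to each other, so the correlations cannot decide whether equal numbers pair the libraries. The labels do not say so either, and the main fit has no such term. A signal of at least 1 in all 8 libraries left 31 of the 41 genes. Change correlated with transcript length over all genes (Spearman 0.25 in KO versus C, 0.13 in DKO versus C and -0.20 in DKO versus KO), and the 41 genes have a median length of 4982 bases against 3380 for all tested genes. Depth limits Scn3b, Scn10a and Cacng6, which had at most 64 reads in a KO library.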
